A study of Mus musculus with 3 samples.

Results

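Dpy19l2, Spata16, Gopc, Agfg1, Pick1, Atp8b3 and Ccdc62 are genes of acrosome biogenesis whose loss or mutation is tied to round-headed sperm (globozoospermia) or to malformed acrosomes. They were taken by gene name, with no threshold on their values, and all 7 were found among the 17946 genes of the deposited table. The table holds messenger RNA levels of round spermatids, the haploid cells that follow meiosis and in which the acrosome is built. The cells were sorted by Hoechst fluorescence from testes of male C57BL/6 mice aged 28 days, and the groups were wild type, MiwiΔIns and MiwiR371W, the last 2 carrying alleles of Miwi (Piwil1), which encodes a germline PIWI protein. Each genotype was represented by 1 library. The labels give neither the zygosity of the alleles nor the number of mice behind a library, so every difference below describes these libraries, has no replicate check and carries no p-value.

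The acrosome is a secretory organelle that caps the sperm nucleus. Vesicles leave the Golgi apparatus of the round spermatid, fuse into one large granule, and the granule is fastened to the nuclear envelope through a plate of cytoskeleton, the acroplaxome. When vesicle traffic or fastening fails, the acrosome is lost or fragmented and the head of the sperm stays round. SPATA16, GOPC, PICK1 and AGFG1 act on the vesicle side. DPY19L2, a protein of the inner nuclear membrane, acts on the anchoring side, and its deletion is a frequent genetic cause of human globozoospermia. ATP8B3 is a phospholipid flippase of the acrosomal region, and CCDC62 is a coiled-coil protein whose mutation in mice gives malformed acrosomes.

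The genes lie on 6 chromosomes of GRCm38. The annotation places Spata16 (ENSMUSG00000039335) at chr3:26637620-26983212 on the plus strand, Agfg1 (ENSMUSG00000026159) at chr1:82839483-82901182 on the plus strand, Pick1 (ENSMUSG00000068206) at chr15:79229173-79249484 on the plus strand. It places Gopc (ENSMUSG00000019861) at chr10:52335850-52382124 on the minus strand, Atp8b3 (ENSMUSG00000003341) at chr10:80519584-80539124 on the minus strand. The remaining genes are Dpy19l2 (ENSMUSG00000085576) at chr9:24557047-24696293 on the minus strand and Ccdc62 (ENSMUSG00000061882) at chr5:123930679-123969895 on the plus strand. All 7 are annotated as protein-coding. The 250 bases before the RefSeq start are shown for 5 of them, which cover the whole range of levels described below. The RefSeq start can differ from the gene start given above. For Spata16 the window ends at 26637630, inside the gene as annotated from 26637620. Atp8b3 is the most abundant member and Gopc the least. Spata16, Dpy19l2 and Pick1 lie between and hold the matches to the E-box or the X-box named below. Sequences are from RefSeq (GRCm38.p6), on the strand of the gene and 5′ to 3′. All 7 genes matched an entry in the RefSeq promoter table, Pick1 with 2 start sites, of which the upstream one is printed. Capitals mark matches, on either strand, to the GC box GGGCGG, the CCAAT box CCAAT, the E-box CACGTG, the core TGACG of the cyclic AMP response element and the arm GTTGCC of the X-box bound by RFX factors.
Atp8b3, chr10:80539125-80539374, minus strand: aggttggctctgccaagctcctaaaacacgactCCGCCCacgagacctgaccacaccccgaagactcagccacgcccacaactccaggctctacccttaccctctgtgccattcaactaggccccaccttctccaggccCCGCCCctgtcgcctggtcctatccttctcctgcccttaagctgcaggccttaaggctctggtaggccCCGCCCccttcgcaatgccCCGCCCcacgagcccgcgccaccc
Spata16, chr3:26637381-26637630, plus strand: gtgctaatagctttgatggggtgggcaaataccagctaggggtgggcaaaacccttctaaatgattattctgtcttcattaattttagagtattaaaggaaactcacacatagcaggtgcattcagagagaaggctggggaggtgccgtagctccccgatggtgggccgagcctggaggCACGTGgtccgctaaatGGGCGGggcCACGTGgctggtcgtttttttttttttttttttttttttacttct
Dpy19l2, chr9:24696294-24696543, minus strand: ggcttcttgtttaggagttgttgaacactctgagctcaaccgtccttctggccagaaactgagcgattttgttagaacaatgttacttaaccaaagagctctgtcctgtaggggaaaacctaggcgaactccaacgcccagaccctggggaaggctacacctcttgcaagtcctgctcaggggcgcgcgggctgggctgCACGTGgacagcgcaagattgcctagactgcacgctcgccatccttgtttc
Pick1, chr15:79228923-79229172, plus strand: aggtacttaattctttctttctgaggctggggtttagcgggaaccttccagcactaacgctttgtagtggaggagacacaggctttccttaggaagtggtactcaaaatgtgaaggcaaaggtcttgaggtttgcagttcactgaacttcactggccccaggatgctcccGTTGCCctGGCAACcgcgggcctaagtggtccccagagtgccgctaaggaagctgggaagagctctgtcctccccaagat
Gopc, chr10:52382125-52382374, minus strand: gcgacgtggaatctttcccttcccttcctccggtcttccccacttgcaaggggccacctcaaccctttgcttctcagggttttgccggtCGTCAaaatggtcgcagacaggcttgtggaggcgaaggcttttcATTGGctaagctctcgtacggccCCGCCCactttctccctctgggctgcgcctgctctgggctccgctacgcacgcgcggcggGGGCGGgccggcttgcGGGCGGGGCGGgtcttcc

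In these windows the E-box CACGTG occurred in Spata16, with its first base 71 and 45 bases before the start, and in Dpy19l2, 51 bases before it. It was present in 6.02% of 32807 mouse promoter windows of the same length. The Pick1 window held 2 X-box arms on opposite strands, facing each other across 2 bases and starting 80 bases before the start site, an arrangement found in 0.0793% of all windows, whereas the single arm GTTGCC was found in 10.4%. GC boxes were found in 5 of the 7 genes, against 32.7% of all windows, with 4 matches each in Atp8b3 and Gopc, 2 of those in Gopc overlapping by their last and first bases. The full cyclic AMP response element TGACGTCA, present in 1.55% of all windows, and the TATA box TATAAA, present in 12.4%, had no match in any of the 8 windows of the 7 genes. The core TGACG had 1 match, in Gopc, against 17.8% of all windows. The CCAAT box was found in Gopc and in the second Pick1 window, against 33.8%. The ETS site CCGGAAG was found in Ccdc62 and the second Pick1 window, against 6.91%. CpG counts ranged from 6 in the upstream Pick1 window to 23 in Ccdc62, and all windows had a median of 6. A match describes these letters and does not show binding.

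Expression is given in the deposited value, whose low values fell on steps that scale inversely with transcript length, so levels can be set side by side between genes. Depth was estimated from the steps on which the low values of long single-transcript genes fell, and 1 fragment was worth 0.075 value × kb in the wild-type library, 0.07 in MiwiΔIns and 0.092 in MiwiR371W. Markers of round spermatids were abundant in every library, with a summed value of 16617 to 22919.8 over 12 of 12 genes. The protamine gene Prm1 and the transition protein gene Tnp2 had the highest means over the libraries. Markers of other cells summed to 985 to 1119.6 for spermatocytes (15 of 15 measured, most of it Syce1 and Stag3), 17.3 to 19.5 for spermatogonia (8 of 10, led by Id4 and Uchl1), 24.9 to 33.0 for Sertoli cells (7 of 10, led by Clu and Defb19), 32.9 to 44.5 for Leydig cells (6 of 6, most of it Scarb1, then Insl3), 11.4 to 18.5 for macrophages (6 of 7, led by Apoe and C1qb) and 164 to 265 for peritubular and endothelial cells (7 of 7, most of it Actg2). Actg2 was at 257 in the wild-type library, 205 in MiwiΔIns and 147 in MiwiR371W, and no other gene of its list was above 5.53. The last sum therefore follows Actg2 and not the other markers. No gene of the table is listed at 0. The Sertoli markers Sox9, Amh and Fshr were sought by gene name and identifier, and no entry was matched. Acta2, a smooth muscle actin of peritubular cells, was the only marker past the rule given below, at 1.01 in the wild-type library, 2.17 in MiwiΔIns and 5.53 in MiwiR371W. Its log2 ratio in MiwiR371W was 1.70 against wild type and 1.04 against MiwiΔIns, but 0.81 and 0.55 with a pseudocount of 5. Most markers of the rarer cells could not pass, because the rule asks for at least 5 in the higher library. In MiwiR371W against wild type, 2 of 8 spermatogonia, 2 of 7 Sertoli and 2 of 6 Leydig markers reached it. So did 1 of 6 macrophage and 2 of 7 peritubular and endothelial markers. Of all genes that reached it, 3.3% passed in that comparison and 4.48% between the mutants. In bulk samples, fewer cells of a type and less RNA per cell cannot be told apart.

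Atp8b3, Spata16, Ccdc62, Dpy19l2, Agfg1 and Pick1 were well expressed in all 3 libraries, and Gopc was not. The order of the levels was the same in each library, from Atp8b3 at the top through Spata16, Ccdc62, Dpy19l2, Agfg1 and Pick1 to Gopc. Atp8b3 was 517 times as abundant as Gopc in the wild-type library, 301 times in MiwiΔIns and 272 times in MiwiR371W. The widest step was the last, with Pick1 at 32.3, 22.1 and 16.0 times the level of Gopc. The closest neighbours were Dpy19l2 and Agfg1, at ratios of 1.16, 1.03 and 1.19, and Ccdc62 and Dpy19l2, at 1.25, 1.3 and 1.16.

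**Figure D1:**
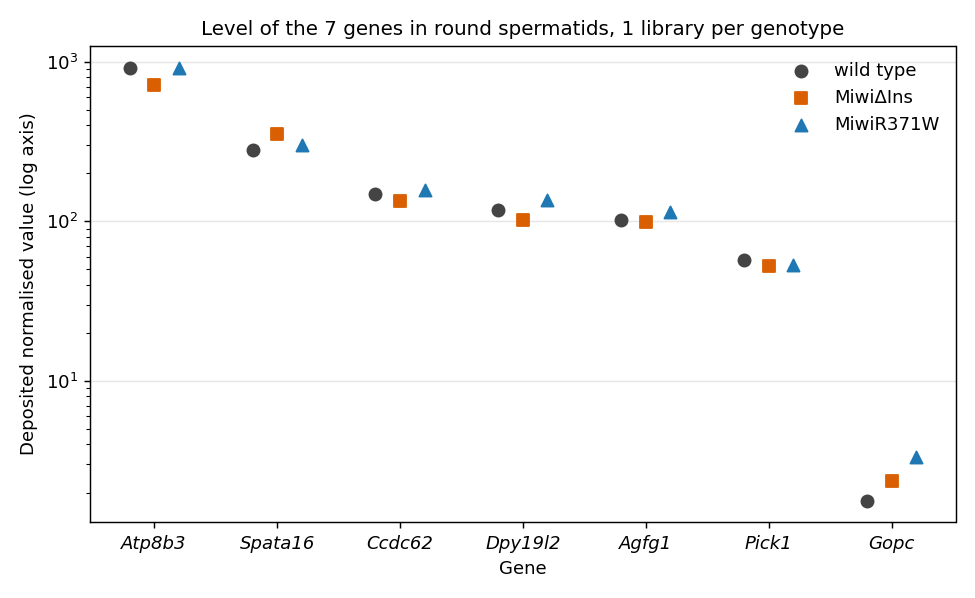
Deposited normalised value (vertical log axis) of the 7 genes (horizontal axis) in the 1 library of each genotype, with circles for wild type, squares for MiwiΔIns and triangles for MiwiR371W. The 3 libraries keep the same order of genes, from Atp8b3 at 713 to 920.1 down to Gopc at 1.78 to 3.35.

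Among the vesicle-side genes, Spata16, which encodes a Golgi protein with tetratricopeptide repeats, was at 279.5 in the wild-type library, 352 in MiwiΔIns and 301 in MiwiR371W. Its value was lowest in wild type and highest in MiwiΔIns. It lay above 97.5% of all genes in the wild-type library, at rank 454, and its value rested on about 5984, 8336 and 5088 fragments. The log2 ratio to wild type, computed with a pseudocount of 1, was 0.33 in MiwiΔIns (95% counting interval 0.29 to 0.38) and 0.11 in MiwiR371W (0.05 to 0.16). The intervals cover counting error alone and leave out differences between mice, sorts and library preparations, and the choice of scaling. Of the 7 genes, Spata16 was the only one whose value was lower in MiwiR371W than in MiwiΔIns (log2 ratio −0.23, interval −0.28 to −0.18). Under the alternative settings given at the end, this ratio lay between −0.23 and −0.08. That of MiwiΔIns to wild type lay between 0.23 and 0.33.

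Agfg1, the Arf GTPase-activating protein-like factor that sits on vesicles before they fuse into the granule, was at 102 in the wild-type library, 99.6 in MiwiΔIns and 114 in MiwiR371W. As deposited, the wild-type and MiwiΔIns values were nearly equal, at a log2 ratio of −0.03 with a counting interval that spans 0 (−0.10 to 0.04). Under the alternative settings this ratio lay between −0.14 and −0.03. The ratio of MiwiR371W to wild type was 0.16 (0.08 to 0.23). Pick1, which encodes a protein with a PDZ and a BAR domain that binds GOPC on Golgi-derived vesicles, was at 57.6, 52.4 and 53.5 in the same order. As deposited it varied least of the 7, with the highest library 1.1 times the lowest, and lay at ranks 2445, 2673 and 2537 of all genes. Its log2 ratio to wild type was −0.13 in MiwiΔIns (−0.24 to −0.02) and −0.10 in MiwiR371W (−0.22 to 0.02). The annotated exons of Pick1 share 1222 bases with the same-strand read-through gene Gm49486, which was not analysed here, so how their reads were divided is unknown.

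Gopc, the Golgi PDZ protein whose loss in mice gives globozoospermia, was at 1.78 in the wild-type library, 2.37 in MiwiΔIns and 3.35 in MiwiR371W. Wild type was the lowest library and MiwiR371W the highest, at 1.88 times the wild-type value. The gene ranked 10887, 10184 and 9399 of 17946, so 39.3%, 43.2% and 47.6% of all genes lay below it. About 89, 129 and 135 fragments stood behind these values. The log2 ratio of MiwiR371W to wild type was 0.65 on the scale with a pseudocount of 1 (0.38 to 0.91) and 0.91 without one, and that of MiwiΔIns was 0.28 (0.02 to 0.54). Of all 12567 genes with a mean of at least 1, 13.4% had a larger ratio in either direction between MiwiR371W and wild type. Gopc did not reach the minimum of 5 set for calling a gene higher or lower. The 6 annotated transcripts of Gopc run from 744 to 5850 nt, and the fragment estimates, made with the median length, move with the transcript used.

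On the anchoring side, Dpy19l2 was at 118 in the wild-type library, 103 in MiwiΔIns and 136 in MiwiR371W. The MiwiΔIns library was the lowest and the MiwiR371W library the highest. The log2 ratio to wild type was −0.20 in MiwiΔIns (−0.25 to −0.14) and 0.20 in MiwiR371W (0.14 to 0.26), so the mutants lay on opposite sides of wild type. Between the mutants it was 0.40 (0.34 to 0.46), and 35.8% of all genes had a larger one in either direction. Dpy19l2 has a single annotated transcript of 3442 nt, so its 4934, 4685 and 4559 estimated fragments do not depend on a choice of isoform.

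Atp8b3, the flippase, was at 920.1 in the wild-type library, 713 in MiwiΔIns and 912 in MiwiR371W. Wild type and MiwiR371W were nearly equal and MiwiΔIns was 22.5% below wild type, a log2 ratio of −0.37 (−0.39 to −0.35). The ratio of MiwiR371W to wild type was −0.01, with a counting interval that spans 0 (−0.03 to 0.01), and its sign turned under other scalings. Atp8b3 ranked 65, 109 and 61 of all genes. Its transcripts had the highest GC content of the 7 genes, at 54.9%. With a trend in GC content and length, fitted over all genes, removed, its ratio in MiwiΔIns was −0.17. Between the mutants the ratio was 0.35 (0.33 to 0.37), and 0.22 with the trend removed.

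Ccdc62 was at 148 in the wild-type library, 134 in MiwiΔIns and 158 in MiwiR371W. As for Dpy19l2 and Agfg1, the MiwiΔIns library was the lowest and the MiwiR371W library the highest. Its log2 ratios to wild type were −0.14 (−0.20 to −0.08) and 0.10 (0.03 to 0.16). The exons of Ccdc62 share 462 bases with the same-strand gene Gm43518, not analysed here. No other near-identical copy, at 95% identity over at least 300 nt, was found for the annotated transcripts of the 7 genes.

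No member passed the rule for a higher or lower gene, a 2-fold difference on the scale with a pseudocount of 1 and a value of at least 5 in the higher library, and 6 of the 7 reached that minimum in each comparison. The background is the share of genes past the rule among those that reached the same minimum. The count of members was 0 of 6 between MiwiΔIns and wild type, where 2.06% of 8550 such genes passed in either direction, 1.3% higher and 0.76% lower. It was 0 of 6 between MiwiR371W and wild type, where 3.3% of 8719 such genes passed, 1.46% higher and 1.85% lower in MiwiR371W. Between the mutants it was 0 of 6, where 4.48% of 8744 such genes passed, 1.27% higher and 3.21% lower in MiwiR371W. With these shares, 0 of 6 is near the background and is not a result about the members.

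The median log2 ratio of the 7 genes was −0.13 in MiwiΔIns against wild type, with 2 of 7 above 0, against a median of 0.03 over the 12567 genes with a mean of at least 1, of which 53.1% were above 0. In MiwiR371W against wild type it was 0.11, with 5 of 7 above 0, against 0.04 and 54.0% over the same genes. These comparisons share the wild-type library. In MiwiR371W against MiwiΔIns it was 0.24, with 6 of 7 above 0, against 0.02 and 52.2%. All 7 lay between the 10th and 90th percentiles of those genes in MiwiΔIns against wild type (−0.38 to 0.50) and in MiwiR371W against MiwiΔIns (−0.64 to 0.53). In MiwiR371W against wild type 6 did (−0.54 to 0.54), and Gopc was above. Of 12 round spermatid markers, 10 were higher in MiwiΔIns than in wild type, with a median of 0.29. In MiwiR371W, 8 of the 12 were lower than in wild type, with a median of −0.28, and 11 of the 12 were lower than in MiwiΔIns, with a median of −0.44. Spermatocyte markers had medians of 0.21 in MiwiΔIns against wild type, with 11 of 15 positive, 0.08 in MiwiR371W against wild type, with 9 positive, and 0.03 between the mutants, with 8 positive. Of 7 peritubular and endothelial markers, 6 were higher in MiwiR371W than in wild type, with a median of 0.48, and 6 were higher than in MiwiΔIns, with a median of 0.58, while Actg2, which makes up most of their sum, was lower. The part of these markers in the members' ratios was not tested. Scaling the libraries to equal sums moved the median of all genes between the mutants from 0.02 to 0.15 and that of the 7 genes to 0.38.

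**Figure D2:**
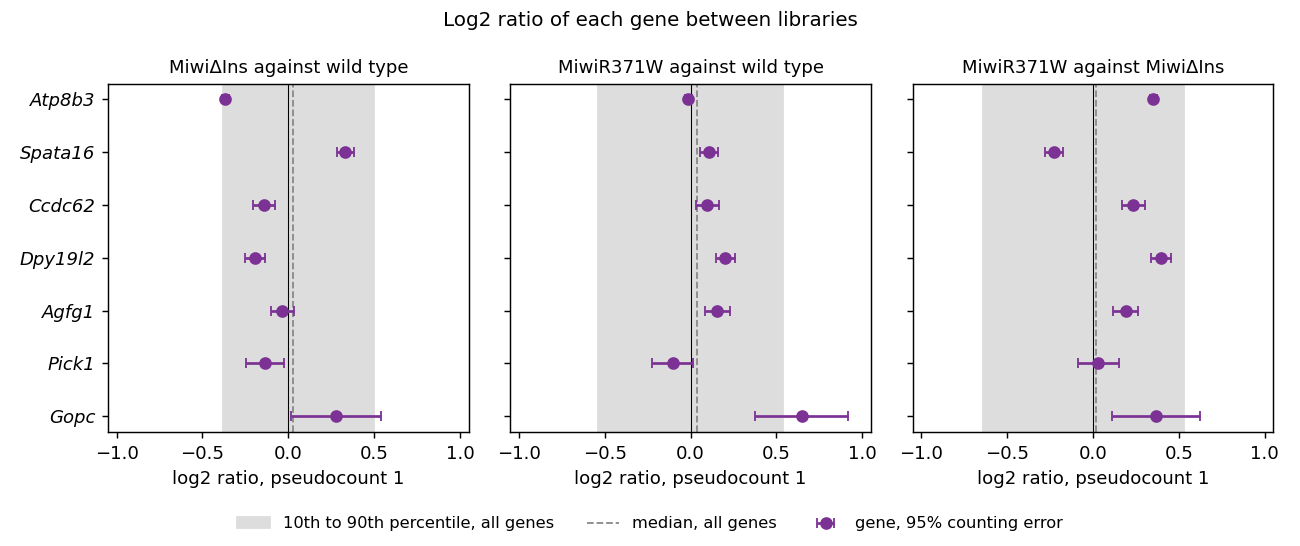
Log2 ratio, with a pseudocount of 1 (horizontal axis), of each gene (vertical axis) in the 3 comparisons, with bars for the 95% counting interval, grey for the 10th to 90th percentile of all genes and a dashed line for their median. Spata16 lies at 0.33 where Atp8b3 lies at −0.37 in MiwiΔIns against wild type, and Gopc at 0.65 lies outside the grey band in MiwiR371W against wild type.

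Ratios between members within a library do not depend on how libraries are scaled to each other. Atp8b3 was 3.29 times as abundant as Spata16 in the wild-type library, 2.02 times in MiwiΔIns and 3.03 times in MiwiR371W. Dpy19l2 stood at 0.421, 0.291 and 0.451 of the level of Spata16, and Ccdc62 at 0.528, 0.38 and 0.525. In each of these pairs wild type and MiwiR371W were close and MiwiΔIns stood apart on the side of more Spata16. The pairs share Spata16, so they are not separate observations. Spata16 over Agfg1, at 2.74, 3.54 and 2.65, had the same pattern. Spata16 over Pick1, at 4.86, 6.73 and 5.62, had MiwiR371W between the others. Spata16 over Gopc, at 157, 149 and 89.8, had MiwiR371W apart. These ratios keep any trend in GC content and length. The level of Agfg1 over Pick1 was 1.77, 1.9 and 2.12, with MiwiR371W the highest. Gopc over its binding partner Pick1 was 0.0309, 0.0453 and 0.0626, a 2.02-fold range that was the widest of any pair.

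Over the 3 libraries the patterns of Ccdc62, Dpy19l2 and Agfg1 were the most alike, measured as the Euclidean distance between the 2 log2 ratios to wild type. The distance was 0.12 between Ccdc62 and Agfg1, 0.12 between Ccdc62 and Dpy19l2, and 0.17 between Dpy19l2 and Agfg1. Gopc and Atp8b3 were the farthest apart, at 0.92, and Spata16 and Atp8b3 were 0.71 apart. For Gopc, the member with the widest range, the nearest other protein-coding genes with a mean of at least 10 were Dmxl2, Parp6 and Snrnp200, at distances of 0.024, 0.026 and 0.026. Snrnp200, a helicase of the spliceosome, was at 23.9 in the wild-type library, 28.6 in MiwiΔIns and 38.1 in MiwiR371W. The likeness is over 3 libraries alone and on the scale with a pseudocount of 1, which shrinks the ratios of a gene as low as Gopc. As deposited, the fold of MiwiR371W over wild type was 1.88 for Gopc, 1.62 for Dmxl2, 1.61 for Parp6 and 1.60 for Snrnp200. The distances are also below the counting SD of the Gopc ratios, 0.133 and 0.137.

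Dpy19l2, Agfg1 and Atp8b3 were the most abundant genes of their families in every library. Dpy19l1, a C-mannosyltransferase, was at 30.5 in the wild-type library, 28.4 in MiwiΔIns and 32.8 in MiwiR371W, so Dpy19l2 was 3.87, 3.62 and 4.14 times as abundant. Dpy19l2 held 76.4%, 76.4% and 78.6% of the summed value of the 4 family genes. Dpy19l4 was at 5.17, 1.40 and 3.51 and was lower in MiwiΔIns than in wild type, with a log2 ratio of −1.36, but −0.67 with a pseudocount of 5. Agfg2 was at 0.21 to 0.31, and Agfg1 was 321 to 485 times as abundant.

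Atp8b3 held 79.7% of the summed value of 15 P4-ATPase genes in the wild-type library, 78.6% in MiwiΔIns and 80.4% in MiwiR371W. The next P4-ATPase was Atp11a in wild type and MiwiR371W, at 56.8 and 51.4, and Atp9b in MiwiΔIns, at 39.1, so that Atp8b3 was 16.2 times as abundant as the next gene in the wild-type library, 18.2 times in MiwiΔIns and 17.7 times in MiwiR371W. CDC50 subunits, which carry P4-ATPases out of the endoplasmic reticulum, were present as Tmem30a, at 35.5, 27.3 and 32.3, and Tmem30c, at 23.9, 26.8 and 25.6. Atp8b2 was at 2.94 in the wild-type library, 2.16 in MiwiΔIns and 8.75 in MiwiR371W. It was higher in MiwiR371W than in either other library, with log2 ratios of 1.31 and 1.63, but 0.79 and 0.94 with a pseudocount of 5. Atp8b2 was the only one of the 16 measured paralogs and subunits past the rule. Of the 16, 9 reached the minimum of 5 in MiwiΔIns against wild type and 10 in each of the other comparisons. In those other comparisons 3.3% and 4.48% of all genes that reached the minimum passed. The highest value of Atp8b2, 8.75, is below the alternative minimum of 10.

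**Figure D3:**
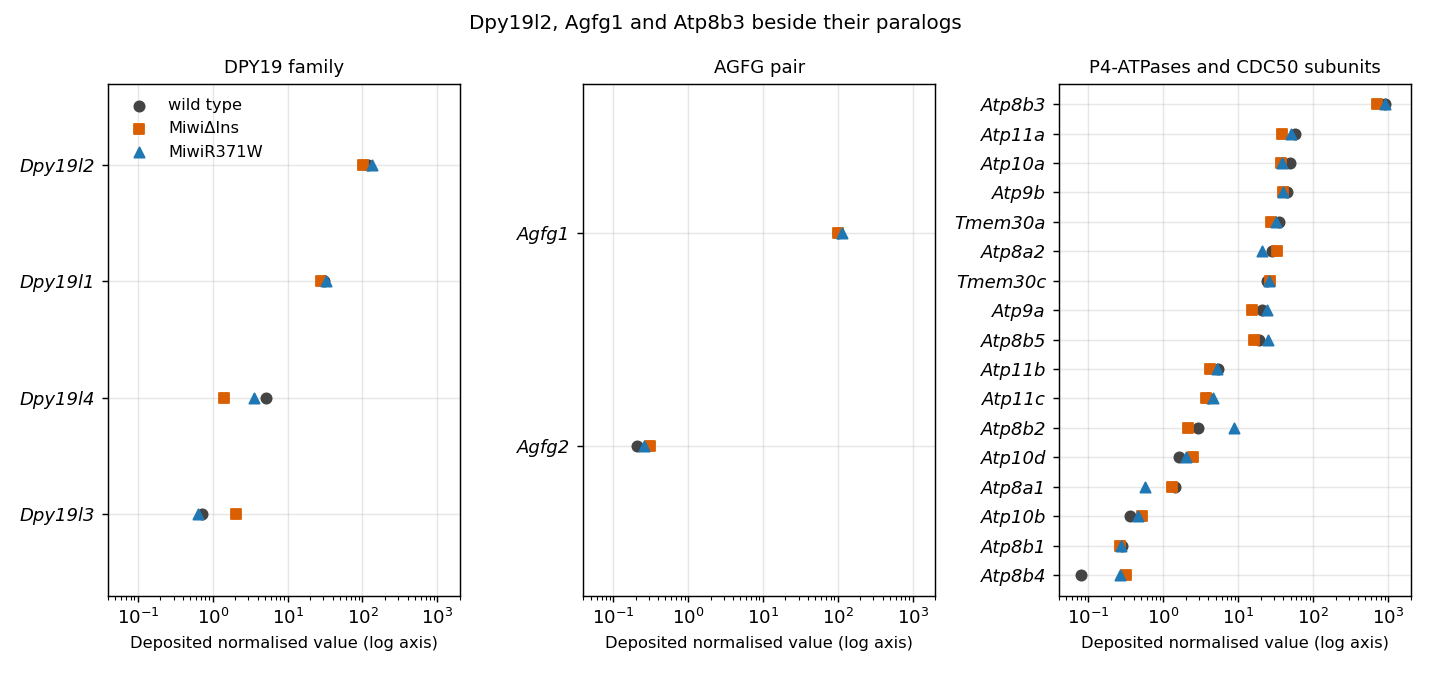
Deposited normalised value (horizontal log axis) of Dpy19l2, Agfg1 and Atp8b3 and of their paralogs and CDC50 subunits (vertical axes), with circles for wild type, squares for MiwiΔIns and triangles for MiwiR371W. The member is the most abundant gene of each panel in every library, with Atp8b3 at 713 or more where the next P4-ATPase is at 56.8 or less.

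Counts in the lists that follow are set against the background shares above, 2.06%, 3.3% and 4.48% past the rule and 53.1%, 54.0% and 52.2% positive. Of 23 listed genes with known acrosome or head shape defects in mice, 22 were measured, and 13 had a positive log2 ratio in MiwiΔIns, with a median of 0.08 and 0 past the rule. In MiwiR371W against wild type 14 were positive, with a median of 0.10 and 0 past the rule. Between the mutants 16 were positive, with a median of 0.11, and 1 of the 19 that reached the minimum was past the rule. This was Fam209, which encodes a partner of DPY19L2 in the inner nuclear membrane. Fam209 was at 534 in the wild-type library, 620.1 in MiwiΔIns and 297 in MiwiR371W, and its log2 ratio between the mutants was −1.06. It lost the call with equal sums (−0.91), without mitochondrial and the 50 most abundant genes (−0.93) and after removal of that GC and length trend (−0.92). Dpy19l2 itself was 0.40 higher on that scale in the same comparison.

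Among 29 of 31 measured genes of the Golgi matrix, Rab, SNARE, coat and sorting machinery, 22 were positive in MiwiR371W against wild type, with a median of 0.15, and 0 passed the rule. In MiwiΔIns 16 were positive, with a median of 0.03, and 1 of the 24 that reached the minimum passed. This was Stam, an endosomal sorting adaptor, at 6.70 in the wild-type library, 15.1 in MiwiΔIns and 10.1 in MiwiR371W. Its log2 ratio in MiwiΔIns was 1.07, but 0.78 with a pseudocount of 5, 0.97 with equal sums and 0.86 once the trend in GC content and length was taken out. Between the mutants 20 of the 29 were positive, with a median of 0.17 and 0 past the rule.

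Genes of the nuclear envelope and acroplaxome had a median of 0.01 in MiwiΔIns against wild type, −0.28 in MiwiR371W against wild type and −0.21 between the mutants. In that order 12, 8 and 7 of 22 were positive. Each time 16 of the 22 reached the minimum, and 0 passed the rule. The actin-like gene Actl7b was at 837, 698 and 617, and Spag4, a SUN domain gene, at 340.3, 275 and 239.7. Both were highest in wild type and lowest in MiwiR371W. The 10 listed partners of GOPC and PICK1 had medians of 0.14, 0.03 and −0.21, with 10, 5 and 4 of them positive. In each comparison 6 of the 10 reached the minimum, and 0 passed the rule. The most abundant were Csnk2b, the regulatory subunit of casein kinase 2, at 2222, 2697 and 1862, and Ica1, a BAR domain partner of PICK1, at 101, 138 and 101. Both were highest in MiwiΔIns. Their log2 ratios to wild type there, 0.28 and 0.45, were 0.17 and 0.34 with equal sums. The lowest ratio of the 10 partners in MiwiΔIns was 0.05, so the count of 10 positive genes depends on the scaling. Some of the partners are also counted in the lists of acrosome or Golgi genes above.

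**Figure D4:**
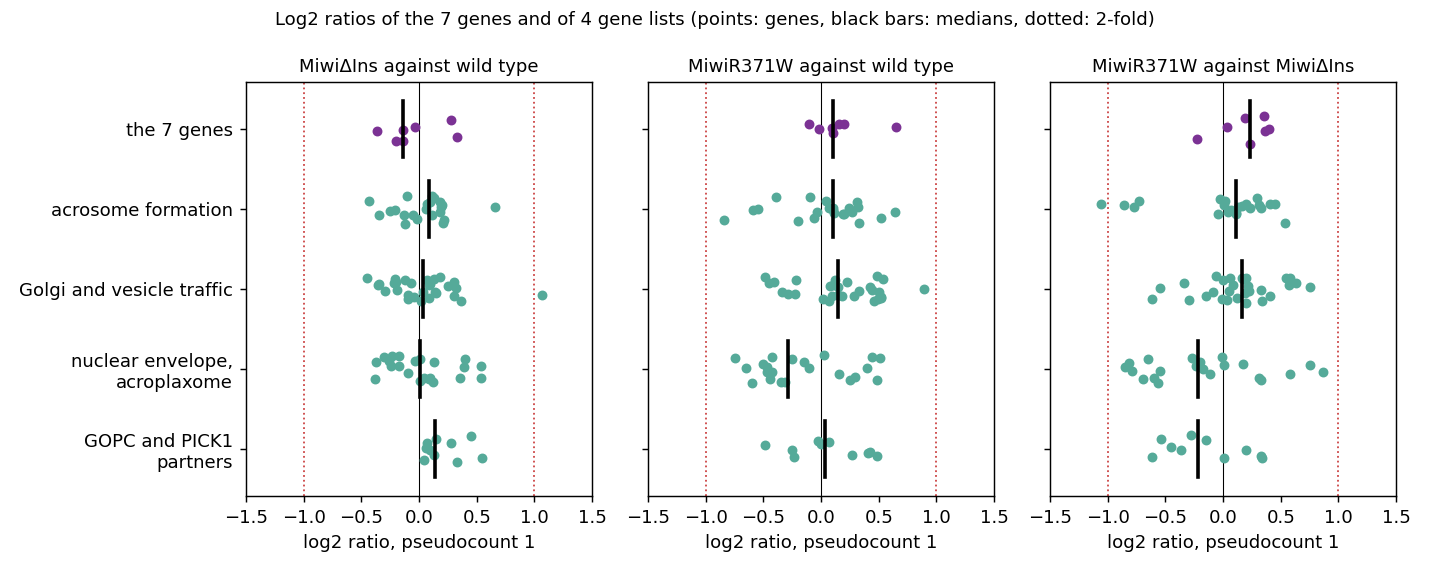
Log2 ratio, with a pseudocount of 1 (horizontal axis), of the 7 genes and of the genes of 4 lists (rows) in the 3 comparisons, with a point for each gene, a black bar for the median and dotted lines at a 2-fold difference. The medians of the 7 genes lie at −0.13, 0.11 and 0.24, and single points past the dotted lines are Stam in MiwiΔIns against wild type and Fam209 between the mutants.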

How the data were processed

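Each sorted round spermatid library was measured by mRNA sequencing. The submitters' processing notes name Trim Galore 0.5.0, STAR and RSEM, and the builds mm10 and GRCm38. The authors deposited 1 normalised signal per gene and genotype, and whether it is FPKM or TPM is not given in the sources used here. The column sums differed between libraries (647897, 697804 and 630809) and were not rescaled. Log2 ratios were computed from the deposited values with a pseudocount of 1 and have no test, because each genotype had 1 library. A gene was called higher or lower at a 2-fold difference with at least 5 in the higher library. Fragments behind a value were estimated from the spacing of low values of genes over 2500 nt and the median annotated transcript length, and 95% intervals cover counting error only. Transcript models were from GENCODE M21, and 98.5% of the table's genes matched. Near-identical copies were searched with blastn 2.17.0. All other steps used Python 3.11.15 with pandas 2.3.3 and numpy 2.4.6. The estimate of the spacing of low values, the 2-fold rule and the removal of a GC and length trend were tested on simulated data. The remaining steps were not. The members and the 14 gene lists were chosen with earlier results of these data known. From each list the text names up to 4 genes past the rule, and otherwise the 2 with the highest mean. Dpy19l1, Atp11a, Atp9b, Tmem30a, Tmem30c and Actg2 are named outside that rule and were chosen after their values were seen. Sox9, Amh and Fshr are named as listed markers without a matched entry. The text also names the 3 protein-coding genes nearest in pattern to the member with the widest range. Alternatives were other pseudocounts, minimums and scalings, and removal of a GC and length trend.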

Additional observations from a re-analysis of the deposited data

How the results depend on the processing

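No member was past the 2-fold rule under any alternative, and 20 of the 21 member ratios kept their sign under all 7. The exception was Atp8b3 in MiwiR371W against wild type, at −0.01 as deposited and between −0.08 and 0.04 otherwise. A change of pseudocount cannot turn a sign, so the pseudocount settings were no check of it. The sizes of the ratios were less stable than their signs. Of the 147 member ratios under the alternatives, 46 lay outside the counting interval of the ratio as deposited. The median log2 ratio of the members in MiwiΔIns against wild type was −0.20 with equal upper quartiles, −0.24 with equal sums and −0.21 with equal sums after leaving out mitochondrial and the 50 most abundant genes. Between the mutants it was 0.38 and 0.37 under the last 2, which moved the median of all genes to 0.15 and 0.14. In MiwiR371W against wild type it was 0.04 with equal medians. Over all genes, the rule called 111 higher and 65 lower in MiwiΔIns against wild type, 127 and 161 in MiwiR371W against wild type, and 111 and 281 between the mutants. In that order the calls were 33 and 17, 30 and 54, and 31 and 143 with a pseudocount of 5; 64 and 27, 60 and 114, and 56 and 215 with a minimum of 10; and 176 and 126, 257 and 243, and 248 and 390 with no minimum. With equal sums the share of higher genes among those called between the mutants was 47.9%, against 28.3% as deposited. In MiwiR371W against wild type it was 51.4% (149 higher and 141 lower) with equal sums and 54.8% (155 and 128) without mitochondrial and the 50 most abundant genes, against 44.1% as deposited. No paired analysis was possible because each genotype had 1 library. One library per genotype also leaves the spread between mice unknown, and counting error is widest for Gopc.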
